A study of Rattus norvegicus with 6 samples.

Results

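The genes described here encode the extracellular matrix and the molecules that anchor cells to it or cut it: collagens, laminins, integrin subunits, matrix metalloproteases (MMPs), their tissue inhibitors (TIMPs) and the ADAMTS proteases. They were chosen by the pattern of their gene symbols in the platform annotation, and they number 114 genes out of 14217 with a symbol, on 164 of 31042 probe sets that are not controls. Where a gene had several probe sets, the brightest over the 6 arrays stood for it. Of the 114, 4 matched by symbol only: Itgb1bp1, Itgb1bp2, Itgb3bp and Itgbl1 encode proteins named after integrins that are not integrin subunits.

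RNA came from retinal ganglion cells of 3 adult male Brown Norway rats, with 1 array for the right eye (OD) and 1 for the left eye (OS) of each rat. All cells, in both groups, had been back-labelled with Fluorogold from the superior colliculus and taken by laser capture, 2000 per eye. In each rat, hypertonic saline injected into episcleral veins had kept pressure high in 1 eye for 10 days and the opposite eye was the control, but the labels do not say which eye that was. Groups are therefore OD (n = 3) and OS (n = 3), differences are OS minus OD within a rat, and none of them has a known direction with respect to pressure. The animals are separate; no marker beyond the Fluorogold label is given for the captured cells.

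As background, collagens are trimeric proteins that form fibrils or sheets, laminins are the trimers on which basement membranes assemble, and integrins are paired alpha and beta subunits that bind both. MMPs and ADAMTS proteases cleave these proteins and TIMPs block the MMPs. In the eye such genes are best known from the trabecular meshwork, the optic nerve head and the inner limiting membrane, on which ganglion cells lie. Most of this matrix is made by glia, vascular cells and fibroblasts, while neurons contribute some subunits and receptors of their own.

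Signal on these arrays was judged against a background limit, the 95th percentile of 27 control probe sets for Bacillus transcripts, which lay between 261 and 591 on the 6 arrays. Ganglion cell markers were present: 7 of 11 measured, among them Thy1, Nefh, Nefm and Rbpms, exceeded the limit on all 6 arrays. Their summed intensity was 21988 to 30959 in OD and 12589 to 17714 in OS, without overlap between eyes. Of the 11, 6 were lower in OS in 3 of 3 rats and 0 were higher in 3 of 3. In bulk RNA, fewer cells of a type and less RNA per cell cannot be told apart. Markers of other cells were also measured. Above the limit on all 6 arrays were 4 of 7 amacrine, 3 of 9 glial and 1 of 14 vascular markers. The same held for 1 of 8 fibroblast, 0 of 11 microglial, 1 of 6 photoreceptor and 0 of 6 pigment epithelium markers. Over all genes this share was 15.7%. Amacrine markers summed to 26369 to 72328 in OD and 11166 to 23650 in OS, without overlap. Pigment epithelium markers summed to 5688 to 36097 in OD and 1948 to 4314 in OS, without overlap, and photoreceptor markers to 3972 to 12349 and 6988 to 11737. By marker, 4 of 7 amacrine and 3 of 6 pigment epithelium markers were lower in OS in 3 of 3 rats. In rat 2 the limit was exceeded by 2 pigment epithelium markers in OD and by 5 in OS. The part of these cell types in the values below was not tested. The 3' to 5' signal ratio of the beta-actin control in OS exceeded that in OD in each rat, with a mean log2 gap of 1.32 ± 0.52 (SD, n = 3; two-sided exact permutation of signs, p = 0.25, the lowest value possible with 3 pairs). For the GAPDH control the gap was 0.29, 0.90 and -2.58 in rats 1 to 3 (mean -0.46 ± 1.86, exact permutation p = 1.0), so the controls did not share a direction. Their part in the differences below was not tested.

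Between 39.5% and 60.5% of the matrix genes exceeded the background limit, depending on the array. These shares also depend on how the limit is set. For OD of rats 1, 2 and 3 the share above the limit was 60.5%, 39.5% and 52.6%, and for OS it was 57.0%, 42.1% and 43.9%. Over all genes, each again by its brightest probe set, these shares were 65.6%, 41.1% and 61.9% for OD and 53.0%, 40.8% and 54.1% for OS. The matrix genes were thus below the share of all genes on 4 arrays and above it on the OS arrays of rats 1 and 2. Only 13 of the 114 (11.4%) exceeded the limit on all 6 arrays, against 15.7% of all genes, and 14 more did so on 5. Another 8 did so on none: Adamts6, Col17a1, Itga1, Itga2b, Itga5, Itgad, Mmp7 and Mmp28. With 3 rats, the number of arrays limits the precision of what follows.

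**Figure D1:**
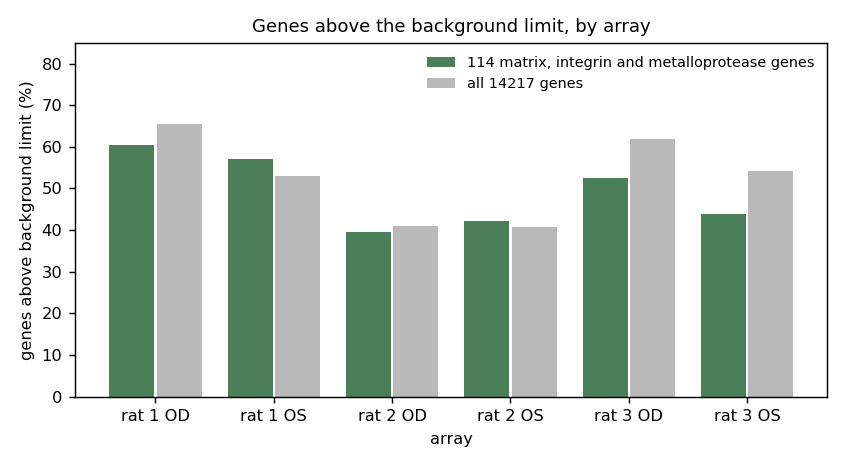
Share of genes above the background limit (percent, vertical axis) on each of the 6 arrays; green bars are the 114 matrix, integrin and metalloprotease genes and grey bars all 14217 genes with a symbol. The green bars run from 39.5% on the OD array of rat 2 to 60.5% on that of rat 1.

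Between eyes, no gene of this set passed the test. After a filter on mean brightness over all 6 arrays, 67 of the 114 genes were tested, and 0 of them had an adjusted p below 0.05 by limma with rat as a block (0.0129% of all 15521 probe sets tested passed, and 0.0116% of genes by their brightest probe set). The smallest adjusted p in the set was 0.285, for Itgb6. At an unadjusted p below 0.05 there were 4 genes, Itgb6, Itgb2, Lama4 and Adamts4, all higher in OS, which is 5.97% of those tested, beside 6.94% of all genes (6.91% of all probe sets). In that direction alone the share over all genes was 1.73%, and in the opposite direction it was 5.20%, where the matrix set had 0. Of the 4 genes, Itgb2, Lama4 and Adamts4 passed the brightness filter only through their OS values. Their mean log2 values were 7.28, 7.74 and 7.03 in OD and 9.72, 9.79 and 9.96 in OS. The mean difference was higher in OS for 34 genes and lower for 33, beside 46.3% and 53.7% of all genes. Its median was 0.03 on the log2 scale, beside -0.07 over all 8594 genes tested, and 0.36, 0.20 and -0.03 in rats 1, 2 and 3. Without rat 3 the median was 0.27, with 42 genes higher and 25 lower. It was -0.16 without rat 1, with 30 higher and 37 lower, and -0.02 without rat 2, with 33 higher and 34 lower. A 95% interval around a gene's difference, not adjusted for the number of tests, had a median half-width of 1.72 on the log2 scale (3.31-fold). Changes below about that size could thus not be detected in a typical member. Larger ones could also miss the adjusted threshold, as Adamts4 did at 2.93 (95% interval 0.69 to 5.16, limma adjusted p = 0.590).

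The same direction in 3 of 3 rats was seen for 14 genes higher in OS (20.9%, beside 13.1% of all genes) and 9 lower (13.4%, beside 15.6%). With a mean difference of at least 2-fold as well, there were 10 higher (beside 6.57% of all genes) and 4 lower (beside 8.60%). Of the 10, Adamts4, Adamts7, Adamts10, Col3a1, Itgb2 and Lama4 passed the brightness filter only through their OS values. Of the 4, Adamts5 and Mmp15 passed it only through their OD values. All 3 OS values lay above all 3 OD values for 4 genes, Itgb2, Lama5, Col22a1 and Col26a1 (5.97%, beside 4.79%). They lay below for 3, Mmp15, Mmp17 and Adamts5 (4.48%, beside 5.70%).

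**Figure D2:**
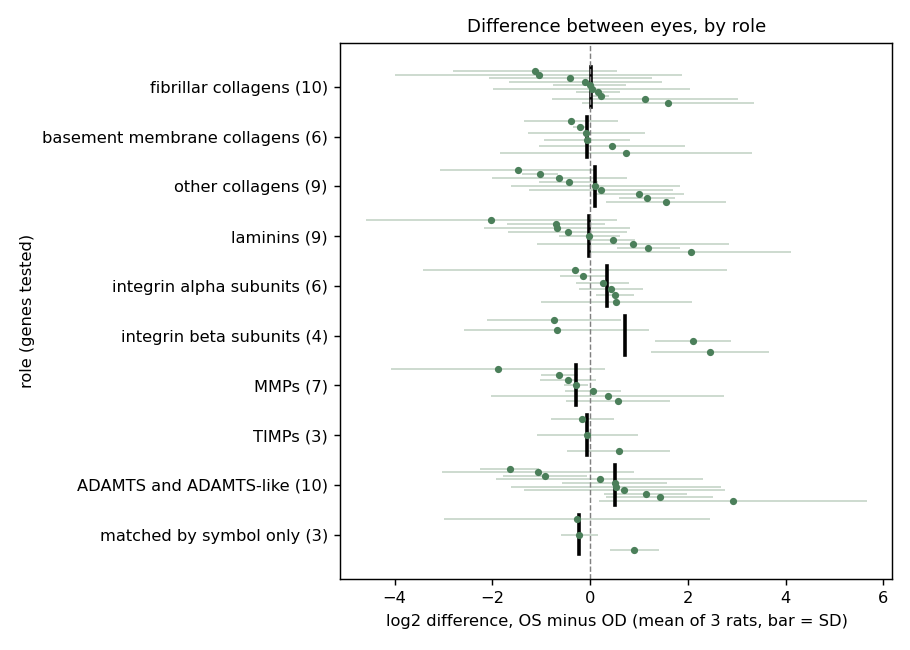
Log2 difference in intensity, OS minus OD (horizontal axis), for the 67 genes tested, in rows by role with the number tested; each point is the mean of 3 rats, its bar the SD, and the black line the median of the role. Most bars cross 0, and medians run from -0.29 for MMPs to 0.71 for integrin beta subunits.

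Among collagens, the fibrillar group gave the clearest signal, with 3 of its 11 genes above the limit on all 6 arrays and 10 tested. Col1a1, which encodes the main chain of type I collagen of connective tissue, measured 386.7, 1005.8 and 473.6 in OD of rats 1 to 3 and 502.0, 1210.2 and 484.4 in OS. The eyes overlapped, rat 2 was highest on both sides, and OS was slightly above OD within every rat, by 0.22 ± 0.17 (SD, n = 3 rats, limma adjusted p = 0.962; 95% interval -1.23 to 1.67). Its partner chain Col1a2 was above the limit on 2 arrays only and was not tested. Col2a1, the chain of cartilage and vitreous collagen, measured 1771.3, 1394.6 and 1005.4 in OD and 2571.1, 1693.9 and 792.8 in OS. Its order from rat 1 to rat 3 was the same in both eyes, and the difference was 0.16 ± 0.45, while its other 2 tested probe sets were lower in OS (-1.42 and -1.35), so its direction is uncertain. Col11a1, a minor chain of the same fibrils, differed by -0.01 ± 0.74 and by 0.10 after quantile normalization.

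Col3a1, the chain of type III collagen, was the fibrillar gene with the lowest unadjusted p. It measured 26.3, 438.1 and 614.5 in OD and 505.7, 620.9 and 992.5 in OS. OS exceeded OD in 3 of 3 rats, by 1.60 ± 1.76 (limma adjusted p = 0.782), with the eyes overlapping and an OD value in rat 1 far below its limit. Without rat 1 the difference was 0.58. Col3a1 passed the brightness filter only through its OS values. The fibroblast list, which shares Col1a1, Col1a2 and Col3a1, had a summed intensity of 2040 to 4428 in OD and 2021 to 5781 in OS. Of its other genes, Pdgfra and Fbln1 each exceeded the limit on 4 arrays, Ogn on 2, and Dcn and Lum each on 1. The part of fibroblasts in these values was not tested.

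Basement membrane collagens showed no shared direction: 4 of the 6 tested had a lower mean in OS and 2 a higher one. Col18a1, the source of endostatin, was the only member of this group above the limit on all 6 arrays, at 1068.7, 1272.9 and 512.6 in OD and 557.4, 1194.7 and 922.3 in OS, a difference of -0.06 ± 0.87. The type IV chains Col4a1 and Col4a2, which assemble into 1 trimer, are encoded head to head. Their starts in RefSeq (GRCr8) are separated by the following stretch, chr16:84885521-84885596, given on the plus strand, from which Col4a1 reads forward and Col4a2 backward; it is shown because the pair shares it and can be compared on that ground.
Col4a1 and Col4a2: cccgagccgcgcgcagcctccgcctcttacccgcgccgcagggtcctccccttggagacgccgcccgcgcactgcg
The 76 bases hold 78.9% G and C and 13 CG dinucleotides. Col4a2 measured 1052.4, 1113.9 and 400.3 in OD and 1163.2, 1266.3 and 130.7 in OS, above the limit on 5 arrays. Col4a1 measured 81.6, 864.4 and 341.7 in OD and 386.7, 453.7 and 390.8 in OS, above it on 2. The differences were -0.39 ± 0.96 and 0.44 ± 1.49, both within their spread, and the other tested probe set of Col4a1 gave -1.41, so the direction of Col4a1 depends on the probe set.

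The remaining collagens were detected less, with 9 of 23 tested and 2 above the limit on all 6 arrays. These were Col9a2, a chain of the collagen that coats vitreous fibrils (-0.43 ± 0.61), and Col16a1, another collagen of fibril surfaces (0.99 ± 0.92). Col26a1 measured 471.4, 141.6 and 438.8 in OD and 909.1, 1209.8 and 750.2 in OS. Col22a1, a collagen of tissue junctions, measured 539.9, 301.5 and 482.6 in OD and 1058.6, 1097.8 and 809.6 in OS. For both, every OS value exceeded every OD value, with differences of 1.55 ± 1.23 (limma adjusted p = 0.730; 0.84 without rat 2) and 1.16 ± 0.57 (adjusted p = 0.781). Col23a1, a transmembrane collagen, was lower in OS in 3 of 3 rats by -1.48 ± 1.60 (adjusted p = 0.766), with the eyes overlapping and an OS value of 52.2 in rat 3. Without rat 3 the difference was -0.61. Of the 5 microfibrillar type VI chains measured (Col6a1, Col6a2, Col6a3, Col6a5 and Col6a6), none passed the brightness filter.

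Of the 10 laminin chains 9 were tested, although none exceeded the limit on all 6 arrays. Lama4, the alpha chain typical of blood vessel basement membranes, measured 707.7, 368.4 and 19.0 in OD and 890.2, 1084.9 and 683.1 in OS. OS exceeded OD within 3 of 3 rats, by 2.05 ± 2.05 (limma adjusted p = 0.690), and the OD value of rat 3 lay far under the limit of 293. Without rat 3 the difference was 0.92. Lama5, an alpha chain widespread in mature basement membranes, measured 460.2, 482.3 and 148.6 in OD and 831.8, 854.5 and 617.6 in OS. Its eyes did not overlap, and the difference was 1.19 ± 0.65 (adjusted p = 0.799). In the opposite direction Lamb1 exceeded the limit on 3 OD arrays and 0 OS arrays. Its OD mean over the 3 rats was at least 1.51-fold higher against the limit (limma adjusted p = 0.744, 95% interval -4.28 to 0.23). Rat 1 went the other way by 0.25, so Lamb1 falls outside the naming rule and was picked out after its values were seen. It passed the brightness filter only through its OD values. Lamb2, a beta chain of retinal and synaptic laminins, differed by 0.46 ± 0.45 and Lamc1, the commonest gamma chain, by -0.68 with rats 1 and 2 below 0 and rat 3 above it.

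Vascular markers stood beside the laminins as follows. The summed intensity of 14 genes was 7884 to 8898 in OD and 4428 to 14161 in OS. Kdr alone gave 8613.9 of the highest sum, that of OS in rat 3. Kdr exceeded the limit on all 6 arrays, Cldn5, Des and Flt1 on 4, and Esam, Pdgfrb, Rgs5 and Tek on 3. Tie1 exceeded it on 2 arrays, Acta2, Kcnj8, Pecam1 and Vwf on 1 and Eng on 0. The part of vascular cells in the Lama4 values was not tested.

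An integrin beta subunit, Itgb6, held the lowest unadjusted p of the whole set. It pairs with the alpha v subunit in a receptor, best known from epithelia, that activates latent TGF-beta. Itgb6 measured 3415.5, 1106.2 and 38.8 in OD and 8047.4, 5893.5 and 336.5 in OS. Rat 3 was far below the other rats and below the limit in both eyes, the eyes overlapped, and OS was higher within every rat, by 1.23, 2.40 and 2.69 (2.10 ± 0.77; limma unadjusted p = 0.000885, adjusted p = 0.285, 95% interval 0.97 to 3.24). Over the alternatives tried, its difference lay between 1.81 and 2.54 and its adjusted p between 0.105 and 0.953. Its partner Itgav measured 2316.4, 244.7 and 826.5 in OD and 1372.2, 1226.8 and 884.6 in OS, a difference of 0.53 ± 1.55 with rat 1 in the other direction.

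Itgb2, the beta subunit shared by leukocyte integrins, measured 433.4, 119.0 and 45.5 in OD and 1081.9, 672.6 and 784.0 in OS. All 3 OS values lay above the limit and above every OD value, of which only that of rat 1 exceeded its limit; the difference was 2.45 ± 1.21 (limma adjusted p = 0.629). Of the alpha subunits that pair with it, Itgam exceeded the limit on 1 array, Itgax on 1 and Itgad on 0, all below the brightness filter. Itgal exceeded the limit on 3 arrays and was tested. It differed by 0.43 ± 0.65 (limma adjusted p = 0.94), with rat 3 in the other direction. Microglial and macrophage markers had a summed intensity of 3807 to 5869 in OD and 3652 to 12955 in OS. Among them Lyz2 was higher in OS in 3 of 3 rats (1.56 ± 0.02). Aif1, a defining microglial gene, was below the limit in every OD sample and above it in 2 of 3 OS samples, at least 1.47-fold higher in OS against the limit and too dim to be tested. Cd74 went the other way, above the limit in every OD sample and no OS sample (OD at least 1.27-fold higher), and Csf1r and Cx3cr1 each went different ways in different rats. The part of such cells in the Itgb2 values was not tested.

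Itgb1, the commonest beta subunit, measured 626.4, 69.8 and 977.3 in OD and 58.2, 73.1 and 546.4 in OS, did not pass the brightness filter and has no test here. Of the 15 alpha subunits 6 were tested. Itga3, a laminin receptor subunit, was the only one above the limit on all 6 arrays, at 2108.3, 1357.0 and 2200.6 in OD and 1708.8, 2343.6 and 2723.2 in OS, a difference of 0.26 ± 0.54 (95% interval -0.71 to 1.23). Itgb1bp1, which is no integrin but binds the tail of the beta subunit Itgb1, measured 2587.7, 3384.4 and 1003.8 in OD and 6459.0, 4294.4 and 2108.6 in OS. OS exceeded OD within 3 of 3 rats, by 0.91 ± 0.50 (limma adjusted p = 0.726), and its other tested probe set gave 0.43.

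**Figure D3:**
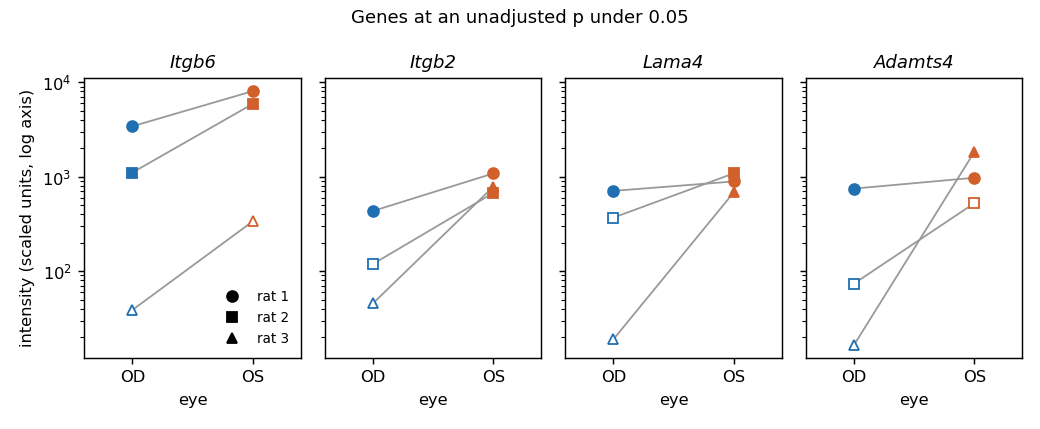
Intensity (scaled units, log axis) in OD and OS of each rat for the 4 genes with an unadjusted p below 0.05, Itgb6, Itgb2, Lama4 and Adamts4; lines join the eyes of 1 rat, symbols mark rats, and open symbols lie at or below the background limit of their array. All 12 lines go up from OD to OS, and 7 of the 12 OD values but 2 of the 12 OS values are open symbols.

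The MMP classes overlapped in how often their genes were detected, and their shares of values above the limit are given without a test, since the grouping was made after the values were seen. The 5 membrane-type enzymes, Mmp14, Mmp15, Mmp16, Mmp17 and Mmp24, which act at the cell surface, were all tested, and 24 of their 30 array values exceeded the limit, from 2 of 6 for Mmp16 to 6 of 6 for Mmp14, Mmp17 and Mmp24. The 6 secreted enzymes whose genes lie together on rat chromosome 8, Mmp3, Mmp7, Mmp8, Mmp10, Mmp12 and Mmp13, were all below the brightness filter, with 11 of 36 array values above the limit, from 0 of 6 for Mmp7 to 4 of 6 for Mmp3. The other 6, among them the gelatinases Mmp2 and Mmp9, had 8 of 36.

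The bases before the start are printed for the 6 clustered genes and, beside them, for Mmp15 and Mmp24, the 2 of 5 membrane-type genes found in the RefSeq promoter table. Each line gives the last 120 bases before the start in GRCr8, 5' to 3' on the gene's strand. Capitals mark TGACTCA, the letters bound by AP-1 factors, on either strand, and TATAAA, the TATA box letters, on either strand within the last 50 bases. The stretches are chr8:12925161-12925280 for Mmp3, chr8:13132923-13133042 for Mmp7, chr8:13008770-13008889 for Mmp8, chr8:12974587-12974706 for Mmp10, chr8:12866532-12866651 for Mmp12 and chr8:12782709-12782828 for Mmp13, all on the plus strand. For Mmp15 it is chr19:9691001-9691120 on the minus strand and for Mmp24 chr3:164739106-164739225 on the plus strand.
Mmp3: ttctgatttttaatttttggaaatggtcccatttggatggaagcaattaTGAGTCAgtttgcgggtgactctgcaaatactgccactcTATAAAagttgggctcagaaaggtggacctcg
Mmp7: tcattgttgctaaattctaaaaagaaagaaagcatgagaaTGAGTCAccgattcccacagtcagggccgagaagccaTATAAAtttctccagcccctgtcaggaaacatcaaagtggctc
Mmp8: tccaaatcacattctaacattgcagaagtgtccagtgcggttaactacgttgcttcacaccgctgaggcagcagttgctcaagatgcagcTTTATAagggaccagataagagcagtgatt
Mmp10: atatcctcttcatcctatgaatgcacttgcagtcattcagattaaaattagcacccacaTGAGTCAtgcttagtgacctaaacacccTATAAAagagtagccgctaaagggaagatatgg
Mmp12: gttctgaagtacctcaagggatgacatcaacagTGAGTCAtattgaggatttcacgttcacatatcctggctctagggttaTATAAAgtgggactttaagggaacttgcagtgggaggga
Mmp13: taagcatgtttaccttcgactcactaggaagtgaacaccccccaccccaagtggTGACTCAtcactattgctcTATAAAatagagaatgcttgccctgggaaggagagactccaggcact
Mmp15: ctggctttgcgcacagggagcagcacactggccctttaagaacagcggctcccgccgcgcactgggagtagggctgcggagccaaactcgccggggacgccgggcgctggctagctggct
Mmp24: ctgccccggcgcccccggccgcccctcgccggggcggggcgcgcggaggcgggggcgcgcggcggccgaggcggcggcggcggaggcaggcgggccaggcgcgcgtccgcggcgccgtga

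Over the 250 bases before the start, TGACTCA was found in 5 of the 6 clustered genes, beside 4.4% of all 27457 genes in the table. TATAAA, sought only in the last 50 of these bases, was found in 6 of 6, beside 3.7%. The 2 motifs share no base. TGACTCA began 61 to 87 bases before the start and TATAAA 30 to 47. Both motifs, each in its own window, were in 5 of the 6, in 0 of the other 80 matrix genes with an entry, and in 0.219% of all genes. A match describes the letters only.

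**Figure D4:**
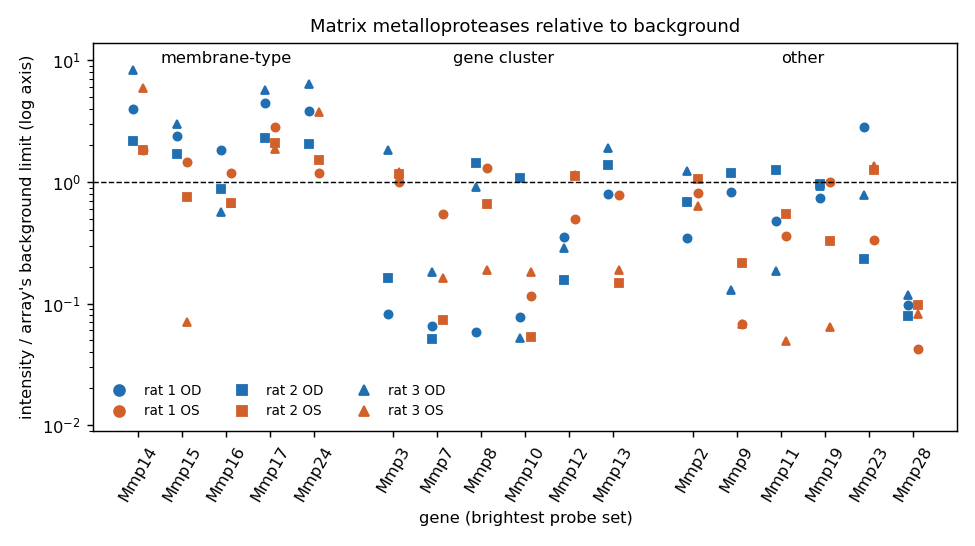
Intensity divided by the background limit of the same array (log axis) for the 17 MMP genes by class, with OD in blue and OS in orange and a symbol for each rat; the dashed line marks the limit. Mmp14, Mmp17 and Mmp24 lie above the line on all 6 arrays, while the genes of the cluster lie on both sides of it or, for Mmp7, below it throughout.

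Within the membrane-type class, grouped after the values were seen, 4 of the 5 enzymes were lower in OS in 3 of 3 rats. That count is by the brightest probe set, beside 15.6% of all genes tested, and each enzyme was short of the threshold. Mmp14, which activates the gelatinase Mmp2 at the cell surface, measured 1037.8, 1290.2 and 2456.5 in OD and 734.9, 994.2 and 2435.4 in OS, with overlapping eyes and a difference of -0.29 ± 0.25 (limma adjusted p = 0.928). In rat 3 its gap was only -0.01, and its other tested probe set gave -0.37 with rat 2 above 0. Mmp17, which is held by a lipid anchor, measured 1154.9, 1357.6 and 1663.0 in OD and 1142.4, 1136.1 and 771.0 in OS. Its eyes did not overlap, by a narrow margin in rat 1, and the difference was -0.45 ± 0.57 (adjusted p = 0.884; -0.13 without rat 3). Mmp24, an enzyme known from neurons, measured 998.3, 1222.2 and 1883.3 in OD and 474.3, 831.4 and 1527.8 in OS, a difference of -0.63 ± 0.38 (adjusted p = 0.845). Its other 2 tested probe sets gave -0.86 and 0.39, so its direction is not settled. Mmp15 measured 617.4, 1000.2 and 882.1 in OD and 581.1, 409.8 and 29.1 in OS; all OS values lay below all OD values, and the difference was -1.89 ± 2.18 (adjusted p = 0.730; -0.67 without rat 3). Mmp15 passed the brightness filter only through its OD values. The differences of these enzymes stand beside the lower summed intensity of ganglion cell markers in OS given above. Not every such marker was lower: Gap43 differed by 0.01 and Isl1, too dim to be tested, by 1.30. The part of ganglion cells in the differences was not tested.

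The gelatinases gave little signal. Mmp2 measured 90.2, 405.6 and 359.8 in OD and 323.4, 581.7 and 258.9 in OS, with 2 of 6 values above the limit and a difference of 0.58 ± 1.07. Mmp9 exceeded the limit on the OD array of rat 2 alone (697.7) and was not tested. Mmp12, a macrophage elastase outside the naming rule and picked out after its values were seen, lay at 92.1, 92.1 and 84.6 in OD, all below the limit, and at 196.7, 615.4 and 469.2 in OS; OS was at least 1.08-fold higher against the limit, with no test at this brightness.

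All 4 TIMPs were measured and 3 tested, and by the brightest probe set none kept a direction across the rats. Timp3, the inhibitor that stays bound to matrix, was above the limit on all 6 arrays at 1823.3, 924.6 and 1245.1 in OD and 1182.3, 1395.0 and 910.4 in OS, a difference of -0.16 ± 0.65 (95% interval -1.28 to 0.97); its other tested probe set was lower in OS in 3 of 3 rats, by -0.49, -1.09 and -3.46 (mean -1.68, limma unadjusted p = 0.0335, adjusted p = 0.677). With the probe sets averaged, Timp3 differed by -0.92. Timp1, the inducible member, measured 461.5, 664.7 and 275.3 in OD and 920.3, 431.7 and 739.5 in OS. It was higher in OS in rats 1 and 3 and lower in rat 2 (0.58 ± 1.05, limma adjusted p = 0.894). Timp2, which also assists Mmp14 in activating Mmp2, differed by -0.06 ± 1.04, and Timp4 exceeded the limit on the OS array of no rat and was not tested.

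**Figure D5:**
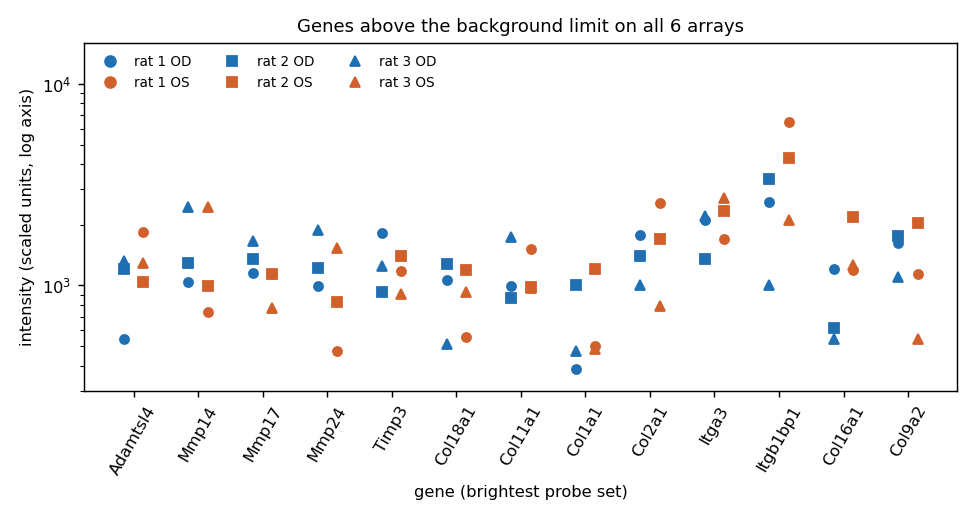
Intensity (scaled units, log axis) of the 13 genes above the background limit on all 6 arrays, with OD in blue, OS in orange and a symbol for each rat; levels of different genes are not comparable. OD and OS points overlap for 12 of the 13 genes, Mmp17 being the exception.

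The ADAMTS group had 16 genes, 10 of them tested. Adamts4 and Adamts5 are the aggrecanases, which cut the core protein of aggrecan, and their means went opposite ways. Adamts4 measured 748.3, 73.8 and 16.5 in OD and 974.1, 523.5 and 1826.3 in OS. OS exceeded OD within 3 of 3 rats, by 2.93 ± 2.74 (limma adjusted p = 0.590), with the eyes overlapping. Without rat 3 the difference was 1.48. Adamts5 measured 469.6, 935.2 and 277.1 in OD and 232.0, 206.4 and 63.6 in OS. All its OS values lay below the limit and below every OD value, so OD was at least 1.11-fold higher against the limit (limma adjusted p = 0.801). Adamts5 passed the brightness filter only through its OD values. Adamts10, a protease of fibrillin microfibrils, was higher in OS in 3 of 3 rats, a mean of 1.42 ± 1.09 (limma adjusted p = 0.801, and 0.79 without rat 2). Adamts10 passed the filter only through its OS values, with a mean log2 value of 7.79 in OD and 9.21 in OS. Adamtsl4, a zonule protein without protease activity, was the only member above the limit on all 6 arrays, at 0.50 ± 1.08.

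For the 13 genes above the limit on all 6 arrays, differences ran from -0.63 to 0.99 with a median of -0.01, 6 higher and 7 lower in OS, and SDs over rats of 0.17 to 1.08. Over all tested matrix genes the 6 arrays spanned a median range of 2.67 on the log2 scale, the eyes of a rat were 0.83 apart and the means of the 3 rats spanned 1.28. Over all genes tested these values were 2.54, 0.82 and 1.23. Of the 11 genes with more than 1 tested probe set, 6 kept a direction across their probe sets and 5 did not (Col2a1, Col4a1, Itga6, Mmp23 and Mmp24).

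Other genes of the matrix pathway, 95 measured of 104 listed, also gave no calls by limma, 0 of 57 tested, and 3 at an unadjusted p below 0.05 (5.26%, beside 6.94% of all genes). Means were higher in OS for 38 genes and lower for 19 (66.7% higher, beside 46.3% of all genes). Without rat 3 they were higher for 30 and lower for 27 (52.6% higher). In 3 of 3 rats 11 were higher (19.3%, beside 13.1% of all genes) and 9 lower (15.8%, beside 15.6%). The 3 genes at an unadjusted p below 0.05 were all lower in OS in 3 of 3 rats. Reln, a secreted glycoprotein that guides neurons, measured 6426.7, 2850.5 and 14910.8 in OD and 3365.2, 2165.8 and 1903.8 in OS, with overlapping eyes and a difference of -1.43 ± 1.35 (limma adjusted p = 0.492). Without rat 3 it was -0.66, and over the alternatives its adjusted p lay between 0.0949 without rat 2 and 0.953 without the pairing of eyes. Reck, a membrane-anchored inhibitor of MMPs, measured 820.0, 1509.4 and 1795.5 in OD and 333.6, 728.9 and 342.0 in OS, without overlap (-1.54 ± 0.70, adjusted p = 0.659). P4hb, a subunit of the enzyme that hydroxylates collagen prolines, differed by -1.67 ± 1.25 (adjusted p = 0.672). In the other direction Sdc2, a cell surface proteoglycan, differed by 1.84 ± 1.71, Hapln2, a link protein of nodes of Ranvier, by 1.54 ± 1.31 and Vcl, which couples integrins to actin, by 1.12 ± 1.08, each in 3 of 3 rats. Without rat 3, Sdc2, above the limit on 2 of 6 arrays, differed by 0.87 and Vcl by 0.56, and with probe sets averaged Vcl differed by 0.37. Without rat 2, Hapln2 differed by 1.02. Sdc2 and Hapln2 passed the brightness filter only through their OS values, with mean log2 values of 7.35 and 7.71 in OD. Fibronectin (Fn1, 0.56 ± 1.16), Sparc (0.40 ± 1.36), Cd44 (0.78 ± 3.39) and the MMP inducer Bsg (0.65 ± 1.20) each went different ways in different rats, and Spp1 was below the limit on all 6 arrays. Amacrine markers, beside Reln, had a summed intensity of 26369 to 72328 in OD and 11166 to 23650 in OS; their part was not tested.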

How the data were processed

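The authors deposited a linear intensity for each probe set of 1-colour Affymetrix arrays. The submitters' processing notes name GCOS, without a version or settings. Per the labels' protocols, RNA was amplified linearly before 10 µg was labelled. The mean after trimming 2% at each end was 500.1 on all 6 arrays, so values were taken as globally scaled and were not normalized further. Of 31099 probe sets, 57 were controls; the platform annotation gave the rest 1 gene symbol (20826), several (436) or none (9780), and 0 of the several-symbol probe sets matched the symbol rule. All 114 members' gene identifiers were found in RefSeq's GRCr8 gene table, and 86 had promoter entries.

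Values were analysed on the log2 scale as log2(intensity + 16), which understates differences of dim probe sets. Probe sets at or above the median brightness, 15521 in number, went into limma 3.58.1 (R 4.3.3; rat as a fixed block, intensity trend, two-sided, Benjamini-Hochberg over all of them, threshold 0.05; 2 residual and 19.4 prior degrees of freedom). The fit was tested on simulated data. Both eyes of a rat are paired by the titles. Deviations from the eye means correlated between the eyes of a rat at 0.109, 0.122 and 0.326 across probe sets. A fold described as at least N compares the eye means on the log2 scale, with values of the dim eye raised to the background limit. Members and lists were chosen with earlier results of these data known. Named in each role were up to 4 genes above the limit on all 6 arrays, up to 3 with 1 direction in 3 rats and at least 2-fold by unadjusted p, and a list of familiar members (Timp1 to Timp4, Mmp2, Mmp9, Mmp14, Itgb1, Itgav, Itgb6, Itgam, Col4a1, Col1a1, Lamb2 and Lamc1; of other matrix genes Fn1, Sparc, Spp1, Reln, Cd44 and Bsg), whatever their values.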

Additional observations from a re-analysis of the deposited data

How the results depend on the processing

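The count of 0 matrix genes past the threshold was also 0 with offsets of 1 and 64, after quantile normalization, with no filter and with a filter at the 75th percentile, with no replicate block, without the trend, with probe sets of a gene averaged and with each rat left out. The smallest adjusted p among them lay between 0.105 without rat 3 and 0.953 without the pairing of eyes; without that pairing 2 matrix genes had an unadjusted p below 0.05, against 4 with it. For the other matrix genes the count was likewise 0 throughout. The median difference of 0.03 was -0.16 to 0.27 with 1 rat left out. The mean share above background, 49.3% over 6 arrays, was 37.4% with the limit at the highest control and 80.0% with it at the median control, and 41.8% over all probe sets, so it depends on the limit. Of 42 named genes with a fit, 30 kept their direction under all alternatives run for them. Signs turned for Col11a1 after quantile normalization (0.10) and for Col2a1 (-0.87) and Col4a1 (-0.48) with probe sets averaged. With 1 rat left out, ranges that crossed 0 were -0.12 to 0.85 for Adamtsl4, -0.97 to 2.42 for Cd44, -0.32 to 0.40 for Col11a1, -0.50 to 0.37 for Col18a1, -0.03 to 0.41 for Col2a1, -0.36 to 1.12 for Col4a1, -0.06 to 1.10 for Fn1, -0.33 to 1.17 for Itgav, -1.35 to 0.13 for Lamc1, -0.10 to 1.18 for Sparc, -0.53 to 0.50 for Timp2 and -0.53 to 0.07 for Timp3. The cause was not tested.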

Other observations

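The matrix genes were also compared by the bases before their starts. Across the 86 genes with an entry in the RefSeq promoter table, the 250 bases before the start held a median of 59.0% G and C and 10.0 CG dinucleotides, beside 52.0% and 6.0 over all 27457 genes of the table. The median share of G and C was 68.4% for the 9 of them above the background limit on all 6 arrays and 55.6% for the 23 above it on 0 or 1 array. These are descriptions of sequence next to array signal, with no test.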
